A study of Mus musculus with 18 samples.

Results

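The genes described here are 42 mouse genes of ribosome biogenesis and of the growth programme that Myc is known to drive. They were taken from a fixed list of gene names, and where a gene had several probe sets, the brightest on average stood for it. All 42 were among the 10916 genes tested, of 18193 genes with a probe set on the array. The arrays measured RNA of side population (SP) cells and of the remaining cells (nonSP) from 3 mouse lung carcinoma lines, A2C12, betaD5 and cRAF_cMYC. SP cells are the cells that keep little of a fluorescent DNA dye because membrane pumps export it. All 3 lines were derived from lung tumours of 8-month-old mice carrying both a c-myc and a c-raf transgene, so every group shares the transgenes, and no line without them was measured. No drug or time course was applied, and the labels do not give the promoters of the transgenes or say whether a line is 1 clone. Each of the 6 groups, SP and nonSP of each line, had 3 arrays, numbered 1 to 3. The labels call them triplicates without saying whether they came from separate cultures or sorts, so p-values measure only the spread between these arrays, which may be technical.

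Ribosomes are assembled mainly in the nucleolus. RNA polymerase I transcribes the long precursor of the ribosomal RNAs, small nucleolar ribonucleoproteins (snoRNPs) modify it, and separate sets of factors fold and cut it into the small and the large subunit. Many genes of these factors are known targets of Myc, a transcription factor that binds DNA as a dimer with Max at sites called E-boxes, and so are enzymes that make polyamines and pyrimidines for growing cells. In tumours driven by Myc, enlarged nucleoli and high output of ribosomes are a familiar feature. Here the 42 genes were ordered by role: 4 genes of RNA polymerase I and ribosomal DNA chromatin, 7 of the snoRNPs, 12 of the small subunit, 13 of the large subunit, 3 nucleolar scaffold and helicase genes, and 3 metabolic enzymes.

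Start regions, from 250 bases before to 50 bases after the RefSeq transcription start (build GRCm38.p6), were available for 36 of the 42 genes. Bop1, Fbl, Npm1, Rrp12, Rrs1 and Srm had no entry. The palindromic E-box CACGTG was found in 9 of the 36 (25%), namely Grwd1, Imp4, Mybbp1a, Nop2, Pes1, Pno1, Tsr1, Utp20 and Wdr43, against 8.09% of the 27025 start regions in the table and 12% of the 8860 that belong to tested genes. In the last 50 bases, which lie downstream of the start, 7 of the 36 (19.4%) held it, against 1.28% of all regions and 1.86% of those of tested genes. The related motif CACGCG, searched on both strands, was in 9 of the 36 (25%), against 10.5% and 20.4%. Either motif was in 16, and both were in 2. A match of letters is a description of the sequence and not a binding site. Both motifs are in capitals in the sequences printed here, CACGCG also as its reverse complement CGCGTG. They are Wdr43 (chr17:71615965-71616264, plus strand) and Pes1 (chr11:3963725-3964024, plus strand), which were among the genes with the smallest p for SP against nonSP. Utp20 (chr10:88826765-88827064, minus strand), Mybbp1a (chr11:72441077-72441376, plus strand) and Odc1 (chr12:17544623-17544922, plus strand) are shown because they separated A2C12 from the other lines.
Wdr43: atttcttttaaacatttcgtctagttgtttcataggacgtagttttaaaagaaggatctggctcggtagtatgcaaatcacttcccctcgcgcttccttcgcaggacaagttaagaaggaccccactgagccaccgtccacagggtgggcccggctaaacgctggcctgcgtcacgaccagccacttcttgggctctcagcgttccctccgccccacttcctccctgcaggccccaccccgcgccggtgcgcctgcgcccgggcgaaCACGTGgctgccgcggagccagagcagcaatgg
Pes1: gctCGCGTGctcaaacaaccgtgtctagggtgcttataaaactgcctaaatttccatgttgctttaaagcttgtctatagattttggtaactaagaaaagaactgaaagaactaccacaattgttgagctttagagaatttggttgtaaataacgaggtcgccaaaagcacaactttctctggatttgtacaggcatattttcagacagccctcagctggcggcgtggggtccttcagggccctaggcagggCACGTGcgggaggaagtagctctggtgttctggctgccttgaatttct
Utp20: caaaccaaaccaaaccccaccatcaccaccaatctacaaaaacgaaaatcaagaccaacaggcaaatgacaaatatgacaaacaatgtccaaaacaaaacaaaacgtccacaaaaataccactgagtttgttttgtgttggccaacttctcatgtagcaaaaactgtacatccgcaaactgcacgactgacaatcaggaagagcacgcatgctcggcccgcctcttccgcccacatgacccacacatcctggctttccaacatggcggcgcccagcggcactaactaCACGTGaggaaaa
Mybbp1a: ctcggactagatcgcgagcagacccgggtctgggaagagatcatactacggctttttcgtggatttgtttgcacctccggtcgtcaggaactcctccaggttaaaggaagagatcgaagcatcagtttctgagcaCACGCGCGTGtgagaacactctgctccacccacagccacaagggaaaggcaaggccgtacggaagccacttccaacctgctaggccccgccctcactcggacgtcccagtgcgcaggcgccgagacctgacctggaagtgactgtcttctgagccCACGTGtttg
Odc1: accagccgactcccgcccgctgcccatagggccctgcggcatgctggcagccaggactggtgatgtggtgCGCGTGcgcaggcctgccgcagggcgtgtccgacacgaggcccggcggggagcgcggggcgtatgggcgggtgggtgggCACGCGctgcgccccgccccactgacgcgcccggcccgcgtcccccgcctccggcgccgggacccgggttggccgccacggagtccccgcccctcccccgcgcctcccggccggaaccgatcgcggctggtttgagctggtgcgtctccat
The E-box began at base 268 of the 300 in Wdr43, 253 in Pes1, 288 in Utp20 and 291 in Mybbp1a, in each case downstream of the start. Odc1 held CACGCG at bases 71 and 150 and no CACGTG.

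All values are log2 probe intensities, quantile-normalized across the arrays, and a level of one probe set is not set against the level of another. The median of the deposited values lay between 5.80 and 6.72 per array. The SP and nonSP arrays with the same number and line resembled each other closely (correlation 0.98 to 0.997 over genes). In pairs 2 and 3 of betaD5, at 0.98 and 0.986, each array correlated still higher with an array of another pair (0.983 to 0.988). The A2C12 arrays correlated at 0.975 or more among themselves and at 0.901 or less with arrays of the other lines. The betaD5 arrays numbered 1 resembled cRAF_cMYC arrays (highest correlation 0.982 for nonSP and 0.984 for SP) more than other betaD5 arrays (0.926 and 0.912). Conversely, the cRAF_cMYC arrays numbered 3 reached 0.988 with betaD5 arrays in both fractions and 0.93 and 0.933 with other cRAF_cMYC arrays. They were kept under their labels, and results were also computed without both pairs. Of the epithelial markers, 6 of 10 were above the filter on dim genes, while Cdh1, Cldn4, Cldn7 and Esrp1 were below it. Of the alveolar type II markers, 4 of 9 were above it, and Sftpc, Sftpa1, Sftpd, Nkx2-1 and Napsa were below it.

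The design asks whether SP cells differ from nonSP cells. Averaged over the 3 lines, 41 of the 42 genes read higher in SP than in nonSP cells, but by small amounts, and no single gene passed the test. The median difference was 0.11 on the log2 scale, against -0.004 over all genes tested, of which 48.1% were above 0. The largest mean differences belonged to Rrp12, a factor of small subunit maturation and export (0.28, 1.22-fold), Ddx18, an RNA helicase of large subunit assembly (0.22), and Nolc1, a chaperone of snoRNPs (0.22). Wdr74, a large subunit factor, was the exception (-0.017). With limma, 0 of the 10916 genes were called at an adjusted p under 0.05, a background of 0% in each direction, so 0 of the 42 were called. At an unadjusted p under 0.05, 1 of the 42, Wdr43, passed, against 1.31% of all genes. The median standard error of the 42 differences was 0.14 when same-numbered arrays were treated as unrelated and 0.069 when they were treated as pairs.

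Same-numbered arrays deviated together in all 9 pairs, so the paired fit is given beside the unpaired one. The pairing was unclear for pairs 2 and 3 of betaD5. Their deviations correlated at 0.605 and 0.602 within the pair, and at up to 0.559 and 0.68 with another number of that line. Paired values and counts of pairs take the replicate numbers as labelled, so they depend on this. In the paired fit of limma, again 0 genes were called, and the smallest adjusted p among the 42 was 0.266 (Ddx18). At an unadjusted p under 0.05, 12 of the 42 were higher in SP, against 7.27% of all genes, and 0 were lower, against 5.25%. Counting signs alone, 11 of the 42 were higher in SP in 8 of 9 pairs and 0 in all 9, where 5.1% of all genes reached 8 or 9 and 0.815% reached 9. A further 12 were higher in 7 pairs and 16 in 5 or 6, and Nop56, Gar1 and Rrp9, each a protein of a snoRNP, were higher in 4. The genes share arrays, so these counts do not treat each gene as an independent observation. In bulk RNA, fewer cells of a type and less RNA per cell cannot be told apart.

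**Figure D1:**
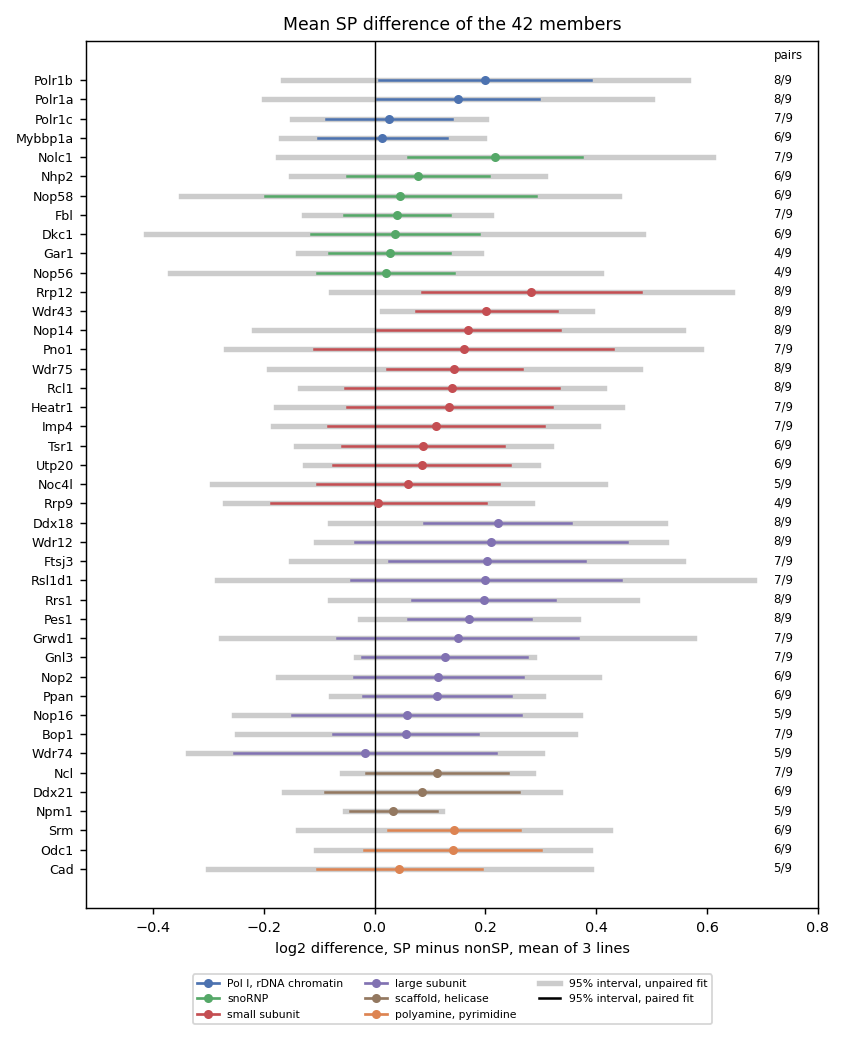
Mean SP minus nonSP difference (log2) of each of the 42 genes over the 3 lines, with 95% intervals of the paired and unpaired limma fits, coloured by role, and the number of pairs above 0 at the right. Of the 42 points, 41 lie to the right of 0, between 0.007 for Rrp9 and 0.28 for Rrp12, and Wdr74 lies at -0.017.

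The 4 genes of RNA polymerase I and ribosomal DNA chromatin were all above 0, with a median of 0.088. Polr1b encodes the second-largest subunit of the polymerase. Its nonSP arrays 1, 2 and 3 read 9.26, 9.20 and 8.66 in A2C12, 9.22, 9.77 and 10.26 in betaD5, and 9.59, 9.07 and 9.52 in cRAF_cMYC. Its SP arrays read 9.35, 9.54 and 8.95 in A2C12, 9.33, 10.42 and 9.90 in betaD5, and 9.83, 9.34 and 9.69 in cRAF_cMYC. SP was higher in 8 of the 9 pairs, although the ranges of the SP and nonSP arrays overlapped in every line. The mean difference was 0.20 (paired SE 0.087, paired adjusted p = 0.384 in limma), and pair 3 of betaD5 was the one below 0, at -0.36. Polr1a, the largest subunit, differed by 0.15 and was also higher in 8 pairs, but its other probe sets above the filter gave 0.001 and -0.31. Polr1c, a subunit shared with RNA polymerase III, and Mybbp1a, a nucleolar protein known to bind Myb, differed by 0.026 and 0.014.

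The 7 snoRNP genes were all above 0 in the mean of the lines, and their median, 0.041, was the lowest of the 6 roles. Nolc1 had the largest difference, and its pair values were -0.11, 0.37 and 0.20 in A2C12, 0.22, 0.61 and -0.032 in betaD5, and 0.25, 0.12 and 0.32 in cRAF_cMYC. It was higher in SP in 7 pairs (mean 0.22, paired SE 0.071, paired adjusted p = 0.287). Nhp2, a core protein of the H/ACA particles that make pseudouridine, had a mean of 0.078, with pair values of -0.24, 0.25 and -0.079 in A2C12, 0.13, 0.081 and -0.21 in betaD5, and 0.11, 0.29 and 0.38 in cRAF_cMYC. Its 3 cRAF_cMYC pairs were above 0, while the pairs of the other lines fell on both sides of it. Dkc1, the pseudouridine synthase itself, Gar1, and the C/D particle proteins Fbl, Nop56 and Nop58 differed by 0.020 to 0.046. In betaD5 alone, 2 of the 7 were above 0, with a median of -0.030.

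The 12 small subunit genes were all above 0, with a median of 0.14, and 4 of them had an unadjusted paired p under 0.05. Wdr43 encodes a scaffold of the early small subunit processome. In nonSP arrays 1, 2 and 3 it read 10.28, 10.19 and 9.85 in A2C12, 10.86, 10.69 and 11.02 in betaD5, and 10.38, 10.56 and 10.47 in cRAF_cMYC. In SP arrays it read 10.43, 10.34 and 10.00 in A2C12, 11.14, 11.14 and 10.94 in betaD5, and 10.52, 10.87 and 10.72 in cRAF_cMYC. Its SP value was higher in 8 of 9 pairs, with a mean of 0.20 (unpaired SE 0.089, paired SE 0.058, paired adjusted p = 0.279 in limma). Rrp12 read 7.70, 7.83 and 7.14 in A2C12, 8.13, 8.41 and 9.02 in betaD5, and 8.66, 8.10 and 8.29 in cRAF_cMYC in nonSP arrays. In SP arrays it read 7.81, 8.16 and 7.31 in A2C12, 8.41, 9.20 and 8.76 in betaD5, and 9.12, 8.41 and 8.64 in cRAF_cMYC. Its pair differences, 0.11, 0.33 and 0.17 in A2C12, 0.28, 0.79 and -0.26 in betaD5, and 0.47, 0.32 and 0.35 in cRAF_cMYC, were above 0 in 8 of 9 pairs (mean 0.28, unpaired SE 0.17, paired SE 0.089, paired adjusted p = 0.283). For both genes the arrays of a line spread as widely as the SP difference, so that SP and nonSP ranges overlapped while the pairs mostly pointed one way. Among the others, Wdr75, a processome component, and Rcl1, which acts with the U3 particle, were higher in 8 pairs (0.14 each), and Rrp9, a protein of the U3 particle, differed least (0.007). Nop14 and Noc4l, which are partners in the processome, differed by 0.17 and 0.060, and its scaffolds Heatr1 and Utp20 by 0.14 and 0.085. Pno1 and Tsr1, which act late in small subunit maturation, differed by 0.16 and 0.088, and Imp4 by 0.11.

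The 13 large subunit genes had a median of 0.15, with 12 above 0. Pes1, which works in one complex with Bop1 and Wdr12, read 11.39, 11.49 and 11.09 in A2C12, 10.74, 11.20 and 11.18 in betaD5, and 11.18, 11.20 and 11.13 in cRAF_cMYC in nonSP arrays. Its SP arrays read 11.28, 11.63 and 11.18 in A2C12, 11.16, 11.54 and 11.31 in betaD5, and 11.47, 11.27 and 11.30 in cRAF_cMYC. The mean difference was 0.17 (unpaired SE 0.093, paired SE 0.050, paired adjusted p = 0.280 in limma), higher in 8 of 9 pairs. In cRAF_cMYC the 3 SP arrays lay above the 3 nonSP arrays, and in the other lines they overlapped. Its partner Wdr12 had a mean of 0.21 and was higher in 8 pairs, while Bop1 had a mean of 0.056. For Ddx18 the pair differences were -0.15, 0.22 and 0.26 in A2C12, 0.27, 0.56 and 0.22 in betaD5, and 0.15, 0.31 and 0.16 in cRAF_cMYC. That is 8 of 9 pairs above 0 (mean 0.22, paired SE 0.061, paired adjusted p = 0.266), the smallest paired p of the 42. Rrs1, a factor that brings the 5S particle into the large subunit, had pair differences of -0.046, 0.32 and 0.083 in A2C12, 0.14, 0.50 and 0.26 in betaD5, and 0.005, 0.14 and 0.38 in cRAF_cMYC. It was again higher in 8 of 9 pairs, and in betaD5 the SP arrays lay above the nonSP arrays (mean 0.20, paired SE 0.059, paired adjusted p = 0.280). Ftsj3, a methyltransferase of pre-ribosomes, differed by 0.20 in the mean and was higher in 7 pairs, as was Rsl1d1, a nucleolar protein with a ribosomal L1 domain (0.20). Grwd1, a chaperone of a large subunit protein, differed by 0.15, the rRNA methyltransferase Nop2 by 0.12, Ppan by 0.11 and Nop16 by 0.058. Gnl3, the nucleolar GTP-binding protein nucleostemin, had pair values of -0.29, 0.33 and 0.066 in A2C12, 0.20, 0.44 and -0.053 in betaD5, and 0.097, 0.25 and 0.10 in cRAF_cMYC. Its mean was 0.13 (paired adjusted p = 0.469), although it was among the 6 smallest p of the unpaired fit.

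The 3 nucleolar scaffold and helicase genes differed little. Ncl, the abundant nucleolar protein nucleolin, had pair differences of -0.03, 0.16 and 0.076 in A2C12, 0.33, 0.29 and -0.25 in betaD5, and 0.02, 0.28 and 0.16 in cRAF_cMYC, with a mean of 0.11 (paired SE 0.058). Ddx21, an RNA helicase, differed by 0.086 and Npm1, nucleophosmin, by 0.034. Among the enzymes, Srm, spermidine synthase, had pair differences of -0.009, 0.18 and -0.005 in A2C12, 0.40, 0.17 and -0.074 in betaD5, and 0.23, 0.29 and 0.12 in cRAF_cMYC. It was higher in 6 pairs (mean 0.14, paired SE 0.054, paired adjusted p = 0.318). Odc1, ornithine decarboxylase, the rate-limiting enzyme of polyamine synthesis, had pair differences of 0.069, 0.24 and 0.25 in A2C12, -0.11, 0.57 and -0.19 in betaD5, and 0.12, 0.32 and -0.012 in cRAF_cMYC and a mean of 0.14. Cad, which starts pyrimidine synthesis, differed by 0.045.

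**Figure D2:**
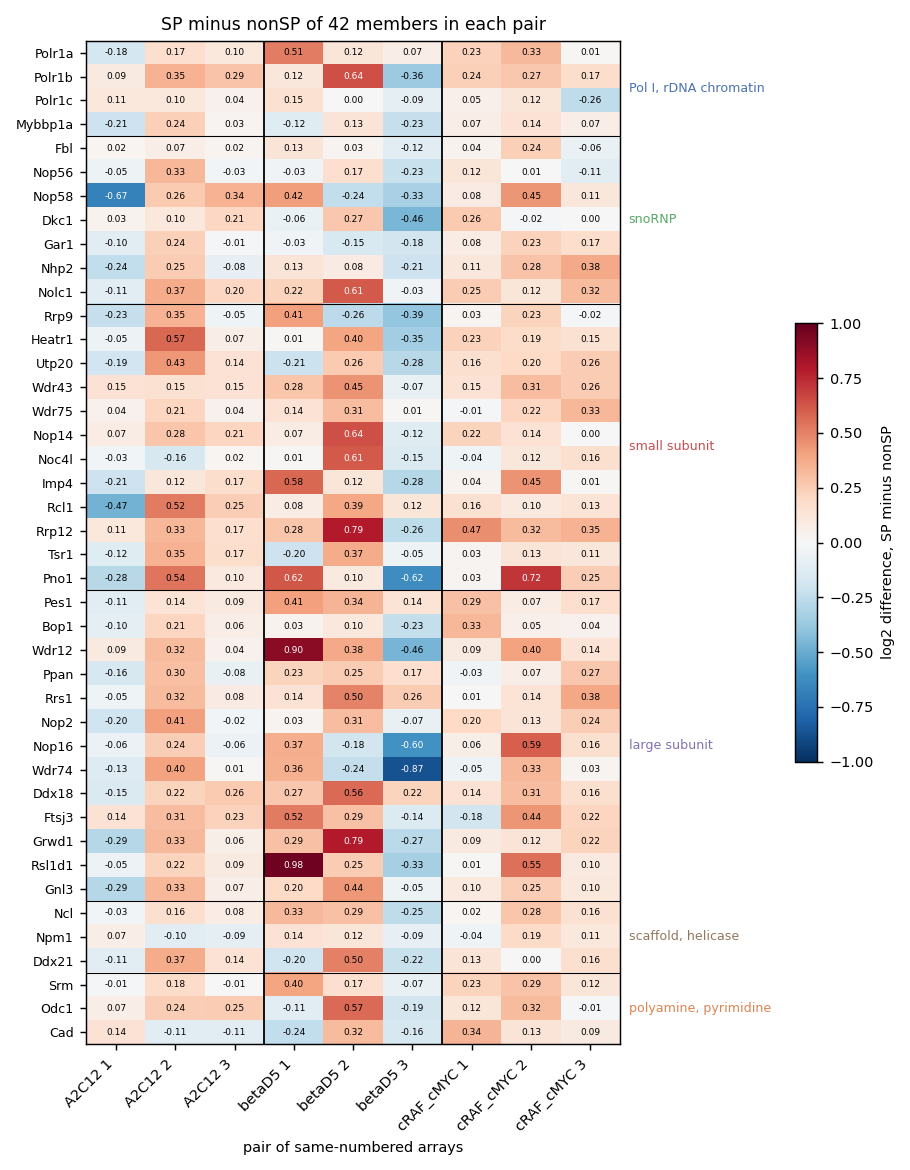
SP minus nonSP difference (log2, colour) of each of the 42 genes, grouped by role, in each of the 9 same-numbered pairs. Most columns are above 0 for most genes, whereas pair 3 of betaD5 has 7 genes above 0 and pair 1 of A2C12 has 13.

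The direction varied between pairs of the same line. The median over the 42 genes was 0.29 in pair 2 of betaD5 (37 genes above 0), 0.25 in pair 2 of A2C12 (39 genes) and 0.22 in pair 2 of cRAF_cMYC (41 genes). It was 0.15 in pair 1 of betaD5 (33 genes), 0.15 in pair 3 of cRAF_cMYC (37 genes), 0.095 in pair 1 of cRAF_cMYC (36 genes) and 0.071 in pair 3 of A2C12 (32 genes). In the remaining 2 pairs it was below 0, at -0.079 in pair 1 of A2C12 (13 genes above 0) and at -0.18 in pair 3 of betaD5 (7 genes). So 7 of 9 pairs had a median above 0, while medians over all genes tested ran from -0.024 to 0.019.

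Signs of RNA quality and of the cell cycle also varied between the pairs, and their part in the result was not tested. The 3'/5' ratio (log2) of Gapdh and Actb, which rises as RNA is degraded, was higher in SP by 0.77 in pair 2 of betaD5 and by 0.86 in pair 3 of betaD5, pairs whose medians had opposite signs. It was 0.911 and 0.961 on those SP arrays and 0.647 or less on the others. The 26 genes of mitosis had a median of -0.63 in pair 2 of A2C12 and of -0.21 in pair 3, against 0.17 in pair 1, so that in this line the mitosis genes and the 42 genes ran in opposite directions in all 3 pairs. In betaD5 the mitosis medians were smaller, at -0.014, -0.12 and 0.08 in pairs 1, 2 and 3, and also opposite in sign to the 42 genes in each pair. In cRAF_cMYC they were 0.12, -0.16 and 0.019, opposite in pair 2 and of the same sign in pairs 1 and 3. Of the 12 fibroblast markers tested, 1 was above 0 in the mean of the lines (median -0.13), and 4 were lower at an unadjusted paired p under 0.05. The mean level of that list in nonSP and SP arrays ran from 9.95 to 10.14 and from 9.77 to 10.04 in A2C12, from 10.43 to 11.88 and from 10.14 to 11.82 in betaD5, and from 10.73 to 12.25 and from 10.59 to 12.05 in cRAF_cMYC.

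**Figure D3:**
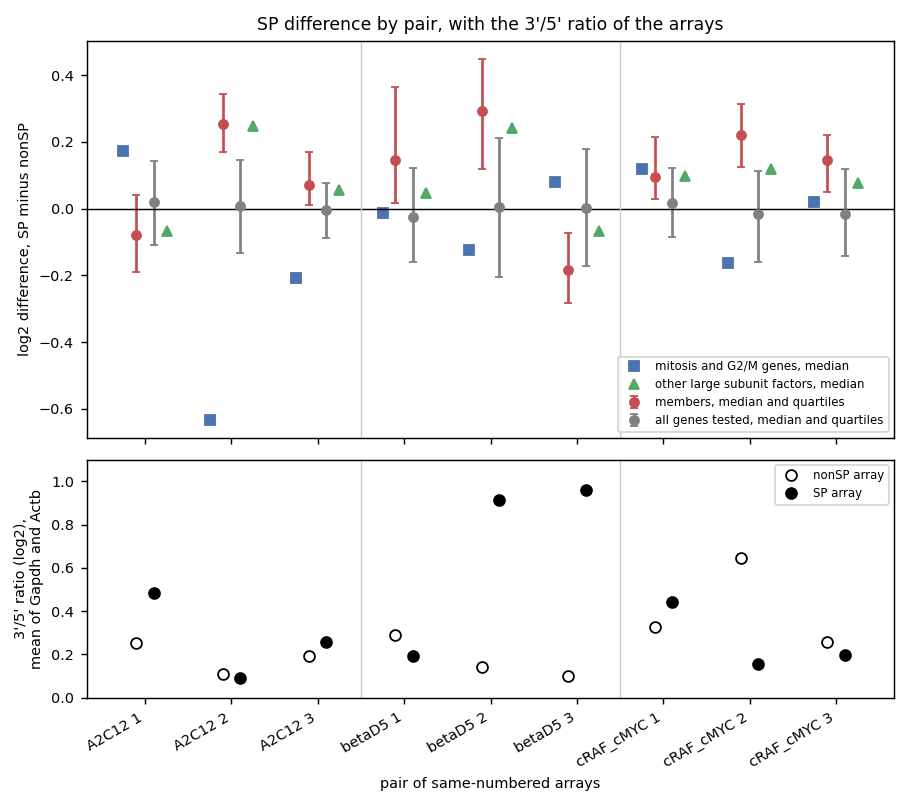
Median SP minus nonSP difference (log2) in each of the 9 pairs for the 42 genes and all genes tested (points with quartiles), the mitosis genes and the further large subunit factors, with the 3'/5' ratio (log2) of each array in the lower panel. The median of the 42 genes is highest in pair 2 of betaD5 (0.29) and lowest in pair 3 of betaD5 (-0.18).

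Line by line, 37 of the 42 genes were above 0 in A2C12 (median 0.085), 30 in betaD5 (median 0.11) and 41 in cRAF_cMYC (median 0.16), where 52.1%, 49% and 48% of all genes were above 0. In limma 0 genes were called in any line, by the unpaired or the paired fit (background 0% in each), and at an unadjusted p under 0.05 the unpaired fit passed 0.0824%, 1.04% and 0.705% of all genes. At an unadjusted paired p under 0.05, 0 of the 42 were higher in A2C12 (all genes 1.09%), 3 in betaD5 (5.78%) and 4 in cRAF_cMYC (4.1%). In A2C12 and betaD5 the sign of the median rested on single arrays, whereas in cRAF_cMYC it was 0.12 to 0.21 with any 1 array or pair of that line left out. Without SP array 2 of A2C12 the A2C12 median was -0.075 (11 genes above 0), and without nonSP array 3 of A2C12 it was -0.026 (14 genes). Without nonSP array 1 of betaD5 the betaD5 median was -0.024 (20 genes), and without SP array 2 of betaD5 it was -0.010 (19 genes). Whether the SP difference itself differed between lines was tested as an interaction. The median over the 42 was -0.017 for A2C12 minus betaD5, -0.082 for A2C12 minus cRAF_cMYC and -0.040 for betaD5 minus cRAF_cMYC. No gene was called in any of these (0% of all genes, and 0.174%, 0.229% and 0.0824% at an unadjusted p under 0.05), and the median 95% interval of a gene reached 0.73 on either side unpaired and 0.37 paired.

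Leaving out single pairs kept most of the 42 above 0. With each pair left out in turn, 36 to 42 genes were above 0 in the paired mean of the lines, with the lowest medians without pair 2 of A2C12 (0.075) and without pair 2 of betaD5 (0.078). The number with an unadjusted paired p under 0.05 was less stable. It was 6 in place of 12 without pair 2 of A2C12 or without pair 2 of cRAF_cMYC, and it was 21 without pair 3 of betaD5. Without pairs 1 of betaD5 and 3 of cRAF_cMYC, 38 were above 0 (median 0.11) and 8 had such a p.

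Other genes of the same pathways, from lists that exclude the 42, also lay mostly above 0. Of 42 further small subunit factors, 33 were above 0 in the mean of the lines (median 0.089), and 11 were higher at an unadjusted paired p under 0.05, where 48.1% and 7.27% of all genes were. Of 45 further large subunit factors 37 were above 0 (median 0.075, 7 at such a p), of 12 further polymerase I genes 10 (0.072, 3), of 11 further snoRNP factors 8 (0.090, 2) and of 30 other growth genes associated with Myc 23 (0.060, 6). None was called in limma (smallest paired adjusted p = 0.242), and none was lower at an unadjusted paired p under 0.05. Examples were Taf1a, a subunit of the polymerase I factor SL1 (0.30, higher in 8 pairs), Nol11, a small subunit processome protein (0.25), and Noc2l, the counterpart of the yeast large subunit factor Noc2 (0.21, higher in all 9 pairs). Nsa2, a large subunit factor, was below 0 at -0.18.

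Myc itself had nearly the same mean in both fractions, on a probe set that the sources used here do not say reads the transgene. Its nonSP arrays read 11.12, 10.87 and 10.65 in A2C12, 10.04, 10.35 and 10.89 in betaD5, and 10.38, 10.25 and 10.62 in cRAF_cMYC. Its SP arrays read 10.81, 10.88 and 10.68 in A2C12, 9.98, 10.93 and 10.59 in betaD5, and 10.43, 10.26 and 10.62 in cRAF_cMYC. The groups overlapped in each line, and the mean SP difference was -0.001 (unpaired SE 0.14, paired 95% interval -0.18 to 0.18). Of 12 tested genes of the Myc network 5 were above 0 (median -0.019), among them Mxi1 (0.13) and Mga (0.16), repressors that pair with Max, while the repressor Mxd1 was at -0.23. None of these passed the test.

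Levels between lines were compared next. In nonSP cells, 17 of the 42 genes differed between A2C12 and the mean of betaD5 and cRAF_cMYC, 14 lower and 3 higher in A2C12, in limma at an adjusted p under 0.05. Over all genes 32.4% were called, 17.4% lower and 15.1% higher. The median of the 42 was -0.19, against -0.029 over all genes, and 13 of the 42 were above 0, against 47.5%. The lower genes were led by Odc1, Utp20 and Cad, and the higher ones were Wdr12, Imp4 and Gnl3.

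Odc1 read 11.38, 11.61 and 11.10 in A2C12, 12.76, 12.80 and 13.27 in betaD5, and 12.68, 12.86 and 13.03 in cRAF_cMYC in nonSP arrays. In SP arrays it read 11.45, 11.86 and 11.36 in A2C12, 12.65, 13.37 and 13.09 in betaD5, and 12.81, 13.18 and 13.01 in cRAF_cMYC. All 6 A2C12 arrays lay below all 12 others. The difference of the nonSP means, A2C12 minus others, was -1.54 (SE 0.17, adjusted p = 1.15e-05 in limma), so Odc1 was at 0.345 of its level in the other lines. Its 2 other probe sets gave -1.62 and -1.09. Cad read 9.27, 9.70 and 9.68 in A2C12, 10.41, 10.83 and 11.40 in betaD5, and 10.13, 10.47 and 10.76 in cRAF_cMYC in nonSP arrays. In SP arrays it read 9.42, 9.59 and 9.57 in A2C12, 10.16, 11.15 and 11.25 in betaD5, and 10.47, 10.60 and 10.85 in cRAF_cMYC. Again the A2C12 arrays lay below all others (-1.12, SE 0.24, adjusted p = 0.00262), and its other probe set above the filter gave a smaller difference in the same direction (-0.20). Srm, which uses the product of Odc1, was not called (-0.012).

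Among the small subunit genes, 6 of 12 were lower and 1 was higher in A2C12, with a median of -0.43. Utp20, a scaffold of the small subunit processome, read 10.34, 10.27 and 10.08 in A2C12, 11.77, 11.76 and 12.15 in betaD5, and 11.66, 11.41 and 11.65 in cRAF_cMYC in nonSP arrays. In SP arrays it read 10.15, 10.70 and 10.23 in A2C12, 11.56, 12.02 and 11.87 in betaD5, and 11.82, 11.61 and 11.90 in cRAF_cMYC. The A2C12 arrays were all below the others, and the difference in nonSP was -1.50 (SE 0.15, adjusted p = 3.24e-06 in limma). Heatr1, another scaffold, read 9.23, 9.54 and 8.90 in A2C12, 10.06, 10.24 and 10.57 in betaD5, and 9.96, 10.13 and 10.14 in cRAF_cMYC in nonSP arrays, a difference of -0.96 (SE 0.22, adjusted p = 0.00384). The second probe set of Heatr1 above the filter gave 0.18, so the call rests on 1 probe set. Rrp12 differed by -0.88 (SE 0.25, adjusted p = 0.0162), and its 3 A2C12 nonSP arrays, given above, lay below the nonSP arrays of the other lines. Without nonSP array 3 of A2C12 the Rrp12 difference was -0.67 (adjusted p = 0.109). Wdr75, Wdr43 and Tsr1 were lower by 0.65, 0.56 and 0.50, and the second probe set of Wdr75 gave 0.49 in the opposite direction. Imp4, a U3 particle protein, was the one higher gene, and its nonSP arrays read 10.31, 10.18 and 9.78 in A2C12, 9.34, 9.55 and 9.55 in betaD5, and 9.87, 9.59 and 9.18 in cRAF_cMYC (0.57, SE 0.21, adjusted p = 0.0448). Its 2 other probe sets gave 0.35 and 0.45, but on the values as deposited its difference was -0.013. Imp4 was not called with each array centred on its median (0.52, adjusted p = 0.0589 in limma) or without the filter on dim genes (adjusted p = 0.0581). With the 3'/5' ratio as a covariate it was not called either (adjusted p = 0.0716). Leaving out array 1 or 2 of A2C12, any 1 nonSP array of betaD5, or array 2 or 3 of cRAF_cMYC also left Imp4 above the threshold of 0.05 (adjusted p = 0.0586 to 0.174), as did both fractions fitted with the pair as a random block (0.51, adjusted p = 0.0827). The other 5 small subunit genes, Nop14, Noc4l, Rcl1, Pno1 and Rrp9, were not called, at -0.36 to -0.027.

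Among the large subunit genes, 3 of 13 were lower and 2 higher, with a median of 0.22. Wdr12 read 10.69, 10.72 and 10.42 in A2C12, 9.26, 10.00 and 10.06 in betaD5, and 10.05, 9.89 and 9.51 in cRAF_cMYC in nonSP arrays. In SP arrays it read 10.78, 11.04 and 10.46 in A2C12, 10.16, 10.38 and 9.60 in betaD5, and 10.14, 10.29 and 9.65 in cRAF_cMYC. All 6 A2C12 arrays lay above all 12 others (0.82, SE 0.22, adjusted p = 0.0111 in limma). Without nonSP array 2 of A2C12 the Wdr12 difference was 0.76 (adjusted p = 0.0534). On the values as deposited it was 0.21 (adjusted p = 0.509). A dimmer probe set of Wdr12 gave -0.56, and on the mean of its probe sets the difference was 0.072 (adjusted p = 0.701). Its partner Bop1 was lower by 0.61 and Pes1 was not called (0.22). The 3 genes of that complex were not tested against each other. Gnl3 read 12.28, 11.99 and 11.95 in A2C12, 11.56, 11.60 and 11.81 in betaD5, and 11.50, 11.58 and 11.51 in cRAF_cMYC in nonSP arrays, higher in A2C12 by 0.48 (SE 0.11, adjusted p = 0.00441) but at -0.12 without quantile normalization. Nop2, an rRNA methyltransferase, and Ddx18 were lower by 0.60 and 0.59. The other 8 were not called, with Rsl1d1 (0.67), Grwd1 (0.52), Ftsj3 (0.36), Nop16 (0.25) and Pes1 (0.22) above 0 and Rrs1, Ppan and Wdr74 at -0.20 to -0.099.

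In the remaining roles 3 genes were called, all lower in A2C12. Mybbp1a was lower by 0.62 (adjusted p = 0.00204 in limma), with all A2C12 arrays below all others, although a second probe set gave 0.50. Nolc1 was lower by 0.85 (adjusted p = 0.0281), while its other probe sets gave -0.083 and 0.34. Ddx21 was lower by 0.69 (adjusted p = 0.00736), and its other probe set gave -0.56. Not called were Polr1a (0.43, with other probe sets at -1.14 and -0.56), Polr1b (-0.53) and Polr1c (0.11), the other 6 snoRNP genes, from Dkc1 (-0.68) to Nop58 (0.061), and Ncl and Npm1 (-0.15 and 0.097). Over the 42 genes, 4 had all A2C12 arrays below all others (Mybbp1a, Utp20, Odc1 and Cad), against 11.3% of all genes, and 1 had them above (Wdr12), against 10.5%.

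**Figure D4:**
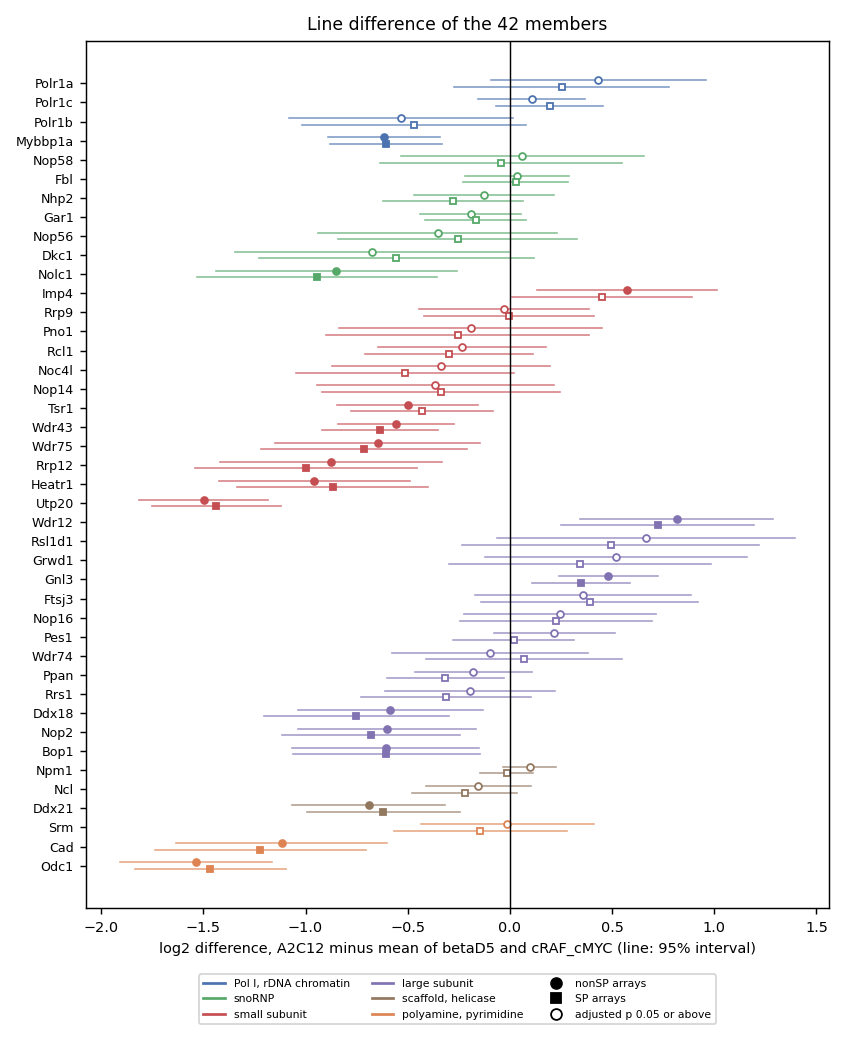
Difference between A2C12 and the mean of betaD5 and cRAF_cMYC (log2) for each of the 42 genes in nonSP (circles) and SP arrays (squares), with 95% intervals and filled symbols for called genes. In nonSP Odc1 (-1.54) and Utp20 (-1.50) lie farthest below 0 and Wdr12 (0.82) farthest above. On the values as deposited Imp4 and Gnl3 move below 0.

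The SP arrays gave nearly the same picture, though same-numbered arrays are not independent. There 15 of the 42 were called, 13 lower and 2 higher (all genes 33.7%, 18% lower and 15.7% higher), with a median of -0.29. Odc1 differed by -1.47, Utp20 by -1.44, Cad by -1.22, Wdr12 by 0.72 and Gnl3 by 0.35. All 15 were also called in nonSP in the same direction. Tsr1 and Imp4 passed in nonSP and not in SP, and in the interactions of fraction with line given above no gene was called.

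**Figure D5:**
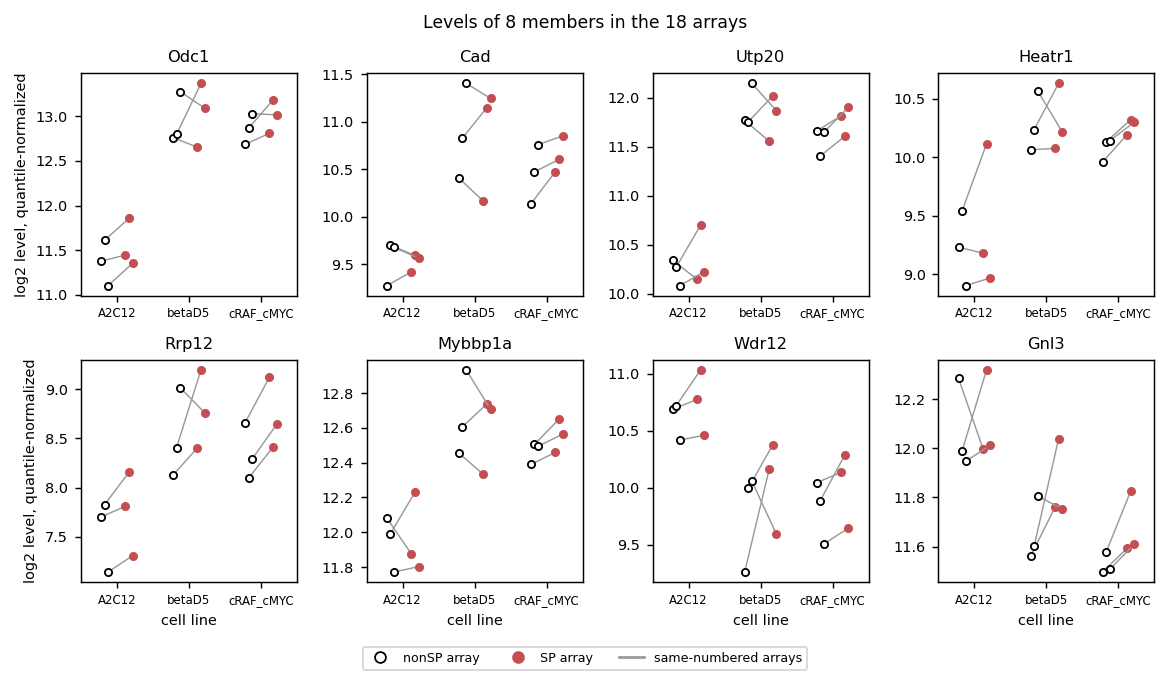
Normalized log2 level of selected genes in each of the 18 arrays, by line and fraction, with grey lines joining same-numbered arrays. The Odc1, Utp20 and Cad points of A2C12 lie below those of both other lines, while their SP and nonSP points overlap within each line.

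Taken line by line in nonSP cells, A2C12 against betaD5 called 14 of the 42, 12 lower and 2 higher (all genes 28.8%, 15.6% lower and 13.2% higher). A2C12 against cRAF_cMYC called 8, 6 lower and 2 higher (22.3%, 12% lower and 10.4% higher). These comparisons share the A2C12 arrays. Between betaD5 and cRAF_cMYC 0 genes were called in limma (0% of all genes, 2.67% at an unadjusted p under 0.05), and 33 of the 42 were above 0 (median 0.12). That comparison includes the pairs that resembled the other line. Without pairs 1 of betaD5 and 3 of cRAF_cMYC it called 2338 of the 10916 genes, among them Nop56, Nop14 and Cad, all higher in betaD5. Those pairs were left out because they resembled the other line, so this count does not test a difference between the lines. In the same setting A2C12 against the mean of the others called 20 of the 42, 17 lower and 3 higher. The share of all genes called there is not given here, so the 20 cannot be set against it.

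The scale of the arrays bears on the number of genes lower in A2C12. The deposited values themselves, without quantile normalization, shifted the median of all genes to -0.58, and on them 32 of the 42 were called lower and 0 higher, of 5699 genes called, 323 of them higher. With quantile normalization 3538 were called, 1644 of them higher. The counts also depended on single arrays: 9 of the 42 were called without nonSP array 3 of A2C12 (2434 of all 10916 genes), 10 without nonSP array 2 of A2C12 (2424 genes), 10 without nonSP array 3 of betaD5 (3152 genes), and 11 without nonSP array 2 of betaD5 (3206 genes). On the mean of each gene's probe sets 11 were called (3176 genes).

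Other genes of these pathways were called between the lines in both directions, and the counts are read against 17.4% of all genes lower and 15.1% higher. In A2C12 8 of 42 further small subunit factors were lower and 4 higher, near the share of all genes for the lower ones, 12 of 45 further large subunit factors were lower and 3 higher, and 9 of 30 other growth genes were lower and 2 higher. Wdr36 (-1.86) and Nol10 (-1.74), both of the small subunit, were among the lower ones. Naf1 (-1.50), an assembly factor of H/ACA particles, was lower too. Counts for the further polymerase I genes and the further snoRNP factors are not given here. Of 26 DNA replication genes 11 were lower and 1 higher, and of 12 fibroblast markers 5 were lower and 0 higher. The mean fibroblast levels of the nonSP arrays, given above, were lower in A2C12 than in every array of the other lines, and their part in the line differences was not tested. Myc was not called (0.46, SE 0.20, adjusted p = 0.0993 in limma). Mycn, its relative, was lower in A2C12 (-2.45), and Max (0.71) and Mycl (1.15) were higher.

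Many of the 42 genes had more than 1 probe set. For 16 genes there was 1, and for 26 there were several, giving 43 further probe sets of which 36 were above the filter level. Of these 36, 28 had the same sign as the main probe set for the mean SP difference and 24 for the line difference in nonSP. For Rrs1, Pes1, Wdr43 and Ddx18 the other probe sets above the filter read 0.11 to 0.17 higher in SP. The 8 with the opposite sign belonged to Polr1a (-0.31), Bop1 (-0.18), Noc4l (-0.045 and -0.019), Fbl (-0.033), Polr1c (-0.023), Heatr1 (-0.005) and Npm1 (-0.002). For the genes called between lines, 12 of 17 other probe sets had the same sign, and those of Wdr12, Mybbp1a, Wdr75, Heatr1 and 1 of Nolc1 had the opposite one. The E-box CACGTG was in 5 of the 12 genes lower in A2C12 that had a start region and in 2 of the 9 such genes that were higher in SP in 8 of 9 pairs. The share was 25% over all 36 of these genes with a start region and 12% over tested genes. A link of the motif with either difference was not tested.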

How the data were processed

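Total RNA (200 ng per sample) was turned into biotin-labelled cRNA and hybridized to Affymetrix 3' arrays, 1 sample per array, per the labels' protocols. The deposited values are log2 intensities per probe set, made by the authors with Affymetrix Expression Console, per the submitters' processing notes; the summary method and version are not given in the sources used here. Values were quantile-normalized over the 18 arrays without the 64 control probe sets. Of 45101 probe sets, 34945 carried 1 gene symbol, 932 several and 9160 none (left out), and 34741 were matched to a current RefSeq name. The probe set with the highest mean stood for each of 18193 genes, and the 40% with the lowest mean were left out.

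Tests used limma 3.58.1 in R 4.3.3 (lmFit, eBayes with trend) on 6 group means (12 residual degrees of freedom), two-sided, with Benjamini-Hochberg adjustment over 10916 genes and a threshold of 0.05. Line and fraction were compared under the labels. A second fit took line and replicate number as a block (6 residual degrees of freedom). Same-numbered SP and nonSP arrays deviated together from their group means (correlation 0.425 to 0.954 in all 9 pairs), which is where the pairing comes from, since the labels state none. In 8 of 9 pairs the nonSP array correlated best with its own number, and for pair 3 of betaD5 it did not (0.602 against 0.68). For pair 2 of betaD5 the margin was small (0.605 against 0.559). The precision is limited by 3 arrays per group, and intensities give no read depth. Scripts were tested on simulated data. Values as deposited, median centring, other filters, the mean of probe sets, the 3'/5' ratio as a covariate, and arrays or pairs left out were tried as alternatives. Values in every array are given for the genes with the smallest p or largest differences in each comparison and role. The 42 genes, the other lists and the marker lists were chosen with earlier results of these data known, so lists are described by counts and medians and were not tested.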

Additional observations from a re-analysis of the deposited data

Results flagged for a closer look

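Gar1, a core protein of the H/ACA particles, differed in sign between lines: its SP minus nonSP difference was -0.033, -0.15 and -0.18 in the 3 betaD5 pairs and 0.076, 0.23 and 0.17 in the 3 cRAF_cMYC pairs. It is listed because every pair of one line lay on one side of 0 and every pair of the other on the opposite side. The share of all genes tested that would meet this rule is not given here, so 1 listed gene cannot be set against it. The difference between the lines was -0.28 (SE 0.19, adjusted p = 1 in limma, and in the paired fit SE 0.12, unadjusted p = 0.0415, adjusted p = 1), so it did not pass the test. Pair 1 of betaD5 and pair 3 of cRAF_cMYC, which resembled the other line, are among these values.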

How the results depend on the processing

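With the replicate block, 0 genes were called for SP against nonSP in each line and in the mean of the lines, as without it. In the line differences, which it cannot test, a fit of both fractions with the pair as a random block ended the call of Imp4 (0.51, adjusted p = 0.0827 in limma) and not that of Wdr12, Gnl3, Odc1, Utp20, Cad, Heatr1 or Rrp12. In SP minus nonSP in betaD5 the genes called numbered 12 with the block and the 3'/5' ratio as a covariate (1 of the 42, Rsl1d1, adjusted p = 0.0468 in limma), 16 with the block without pairs 1 of betaD5 and 3 of cRAF_cMYC, and 2 without pairs 2 and 3 of betaD5, an alternative chosen after seeing the data. That alternative called 7 in SP minus nonSP in cRAF_cMYC and 1 in SP minus nonSP, mean of 3 lines, where the covariate also called 1. With 1 array or pair left out, the calls ran from 0 to 74 in SP minus nonSP in betaD5 (74 without pair 1), from 0 to 8 in the mean of 3 lines (8 without pair 1 of betaD5) and from 0 to 4 in the difference of SP effects, betaD5 minus cRAF_cMYC. The median over the 42 then ran from -0.075 (without SP array 2) to 0.20 in SP minus nonSP in A2C12 and from -0.024 (without nonSP array 1) to 0.23 in SP minus nonSP in betaD5. For the difference of SP effects it ran from -0.14 to 0.14 for A2C12 minus betaD5, from -0.21 to 0.040 for A2C12 minus cRAF_cMYC and from -0.20 to 0.081 for betaD5 minus cRAF_cMYC. It was 0.024 for A2C12 minus betaD5 without pairs 1 of betaD5 and 3 of cRAF_cMYC, with or without the block. For betaD5 minus cRAF_cMYC it was 0.080 with the block and the covariate and 0.016 without pairs 2 and 3 of betaD5. As deposited, the line difference in nonSP, A2C12 minus mean of betaD5 and cRAF_cMYC, called 5699 genes and 32 of the 42 (median -0.81), that in SP 5841 and 32 (-0.91), A2C12 minus betaD5 6022 and 32 (-1.02), and A2C12 minus cRAF_cMYC 17 of the 42 (-0.66). Imp4 turned to -0.013 and Gnl3 to -0.12 on that scale. The mean of all probe sets called 11 of the 42 in the line difference in nonSP, A2C12 minus mean of betaD5 and cRAF_cMYC, and 4 in A2C12 minus cRAF_cMYC, as did the 3'/5' covariate. Leaving out 1 array gave 9 to 17, 8 to 15 (A2C12 minus betaD5), 3 to 7 (A2C12 minus cRAF_cMYC, 1599 to 2110 genes) and 7 to 16 in SP (7 without A2C12 array 3). Counts of the 42 that stand here without a count over all genes cannot be read as particular to the 42. For betaD5 minus cRAF_cMYC the median ran from 0 to 0.26, and without pairs 1 of betaD5 and 3 of cRAF_cMYC 2338 genes and 3 of the 42 were called. Those pairs were left out because they resembled the other line, so that count does not test a difference between the lines. For all these shifts the cause was not tested. The other 773 summary values stayed within a set tolerance of the main ones, so they may still differ from them. The tolerance was a limited ratio for counts, and for medians the same sign and a shift below the spread between replicates. Another 725 single-gene values kept their direction and side of the threshold, and 15 single-gene values, of Imp4, Wdr12 and Rrp12, lost the call.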

Other observations

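The DNA replication list had a median of 0.033 in the mean of the 3 lines, with 14 of 26 genes above 0, while 5 of 26 mitosis genes were above 0 (median -0.065). In pair 2 of A2C12 both lists were low in SP, with 0 of 26 replication genes (median -0.31) and 1 of 26 mitosis genes (median -0.63) above 0. In pair 1 of A2C12 both medians were above 0 (0.12 and 0.17). In A2C12, 0 of the 26 mitosis genes were above 0 (median -0.21). Hk2, which starts glycolysis, read 0.28 higher and Ldha, lactate dehydrogenase A, 0.13 higher in SP in the mean of the lines, and neither passed the test in limma. Of the leukocyte markers tested 2 of 6 were above 0 (median -0.069) and of the endothelial markers 1 of 3 (median -0.042).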
